A study of Mus musculus with 2 samples.

Results

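The 10 genes described here are markers and effectors of alternatively activated macrophages: Il4ra, Arg1, Retnla, Chil3, Mmp12, Mrc1, Cd163, Stab1, Folr2 and Lyve1. They were chosen by symbol from the 31055 features that both count files list, and each symbol was found once. Their unique molecular identifiers (UMIs, 1 per captured RNA molecule) were counted in barcodes that passed a floor of 500 genes and a ceiling of 10% of UMIs from mitochondrial genes. In macrophages, interleukin-4 and interleukin-13 act through receptors that share the Il4ra chain and through the transcription factor STAT6, and in mouse cells this induces Arg1, Retnla and Chil3. Mrc1, Cd163, Stab1, Folr2 and Lyve1 encode surface receptors that are found on many tissue-resident macrophages, among them the macrophages of the brain's borders. Microglia, the resident macrophages of the brain, are marked by P2ry12, inflammatory monocytes by Ly6c2, and most brain macrophages by the complement genes C1qa, C1qb and C1qc.

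Both libraries came from tumours of Math1-Cre;SmoM2fl/fl mice, in which Cre driven by Math1 in the granule neuron lineage switches on an active form of Smoothened and gives medulloblastoma of the sonic hedgehog type. There was 1 library from tumour tissue after FLASH proton irradiation, in which the dose is given at an ultra-high rate, and 1 library after standard proton irradiation. The sample labels give 5 Gy for both libraries and the series text gives 10 Gy, and this was not settled. An unirradiated library was not analysed here. The sources used here do not state the age of the mice, their number or the time after irradiation. With 1 library per group there is no test between groups, no difference has a replicate check, and each interval covers counting error only, at 95% confidence.

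After the cell filter, 10366 cells of the FLASH library and 8461 of the standard library remained, with a median of 5330 and 5700 UMIs per cell. The files share 46 barcode sequences. Myeloid cells were taken as cells with at least 4 of 8 pan-myeloid genes (Tyrobp, Fcer1g, Ctss, Laptm5, Cd68, Csf1r, Aif1 and Lyz2). This gave 381 FLASH cells (3.68%, exact Clopper-Pearson interval 3.32 to 4.06) and 340 standard cells (4.02%, 3.61 to 4.46), with a median of 6216 UMIs in FLASH and 6668 in standard. All 8 genes were found in 204 and 209 of them. Of these cells, 98 FLASH and 86 standard cells also held at least 2 markers of the granule neuron lineage. Ratios over all myeloid cells that move without these cells are given in that way too. The results inside subsets were not repeated without them. In dissociated tissue, fewer cells of a type and poorer survival of that type cannot be told apart.

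The members sit on 8 chromosomes of the mm10 genome, with positions from GENCODE release M21 matched by gene ID. Il4ra (ENSMUSG00000030748, chr7:125552120-125579474, plus strand) encodes the receptor chain common to interleukin-4 and interleukin-13. Arg1 (ENSMUSG00000019987, chr10:24915221-24927484, minus strand) encodes the arginase that splits arginine into ornithine and urea. Retnla (ENSMUSG00000061100, chr16:48842551-48844461, plus strand) and Chil3 (ENSMUSG00000040809, chr3:106147554-106167564, minus strand) encode secreted proteins, the resistin-like molecule also called FIZZ1 and the chitinase-like protein also called Ym1. Mmp12 (ENSMUSG00000049723, chr9:7344381-7369499, plus strand) encodes the macrophage metalloelastase. Mrc1 (ENSMUSG00000026712, chr2:14229392-14332057, plus strand) encodes the mannose receptor CD206, and Cd163 (ENSMUSG00000008845, chr6:124304656-124330527, plus strand) encodes the scavenger receptor for haptoglobin-bound haemoglobin. Stab1 (ENSMUSG00000042286, chr14:31139013-31168641, minus strand) encodes stabilin-1, a scavenger receptor that clears modified lipoproteins and matrix proteins. Folr2 (ENSMUSG00000032725, chr7:101839988-101857194, minus strand) encodes folate receptor beta, and Lyve1 (ENSMUSG00000030787, chr7:110850607-110863239, minus strand) encodes a hyaluronan receptor. Reads of Chil3 and Retnla can be split with their close relatives (Chil4, and Retnlb and Retnlg), and Mrc1 (Mir511, same strand), Mmp12, Folr2, Stab1 and Il4ra overlap other genes, so their counts carry that uncertainty.

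Promoter sequences are shown for 3 members on which the results below turn: Mrc1 and Stab1, where Stab1 was found more often in cells with Mrc1 than in cells without it, and Retnla, which had the largest ratio between the libraries among members with at least 30 UMIs. RefSeq's promoter table of GRCm38.p6, from 250 bases before to 50 bases after each gene's start, held 8 of the 10 members. In Mrc1 (chr2:14229164-14229463, plus strand) and Stab1 (chr14:31168592-31168891, minus strand) the capitals mark GAGGAA, the core letters bound by the myeloid factor PU.1, on either strand. These letters occurred 3 times in the Mrc1 window and 1 time in the Stab1 window, and 28.3% of all 32851 promoters of this length held them. In Retnla (chr16:48842359-48842658, plus strand) the capitals mark TTC and GAA with any 4 bases between them, the spacing that STAT6 prefers, and TTGC and AA with any 2 bases between them, a core of C/EBP sites, each searched on both strands. The STAT6 letters were in 6.95% and the C/EBP letters in 10.8% of all promoters, and in Retnla the matches do not overlap. The Retnla window also holds GAGGAA, which is not in capitals there. A match of letters is a description and does not show binding.
Mrc1: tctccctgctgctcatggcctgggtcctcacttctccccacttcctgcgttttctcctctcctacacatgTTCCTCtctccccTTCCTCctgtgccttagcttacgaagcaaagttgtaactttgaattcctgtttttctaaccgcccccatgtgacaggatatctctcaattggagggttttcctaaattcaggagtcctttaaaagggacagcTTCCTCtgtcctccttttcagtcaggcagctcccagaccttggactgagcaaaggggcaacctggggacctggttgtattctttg
Stab1: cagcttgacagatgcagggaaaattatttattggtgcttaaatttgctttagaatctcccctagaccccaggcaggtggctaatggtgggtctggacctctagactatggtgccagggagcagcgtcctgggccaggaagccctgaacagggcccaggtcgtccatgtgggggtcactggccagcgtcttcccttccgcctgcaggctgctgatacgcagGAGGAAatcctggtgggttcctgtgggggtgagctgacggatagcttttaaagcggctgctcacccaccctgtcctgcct
Retnla: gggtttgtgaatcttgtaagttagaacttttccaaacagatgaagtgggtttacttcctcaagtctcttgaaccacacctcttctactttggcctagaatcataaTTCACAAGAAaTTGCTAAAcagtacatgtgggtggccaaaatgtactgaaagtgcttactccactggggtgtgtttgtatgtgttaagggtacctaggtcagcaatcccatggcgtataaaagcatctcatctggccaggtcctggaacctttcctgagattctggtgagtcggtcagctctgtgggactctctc

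Most myeloid cells of both libraries held at least 1 UMI of these genes, and few held many of them. A UMI of any member was found in 274 of 381 FLASH cells (71.9%) and 253 of 340 standard cells (74.4%). At least 3 different members were found in 97 FLASH and 83 standard cells, and at least 5 in 7 and 6. No member was found in 107 FLASH and 87 standard cells. These shares depend on depth: with every cell thinned to 2000 UMIs the shares with any member were 53.6% in FLASH and 55.6% in standard.

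Il4ra, the receptor chain, was found in 146 FLASH cells (38.3%, 33.4 to 43.4) and 124 standard cells (36.5%, 31.3 to 41.8). It was held in few copies per cell, with a median of 1 UMI in the positive cells of each library. Among the effectors, Arg1 was found in 43 FLASH cells (11.3%, 8.29 to 14.9) and 31 standard cells (9.12%, 6.28 to 12.7). Chil3 was found in 49 FLASH cells (12.9%, 9.67 to 16.6) and 18 standard cells (5.29%, 3.17 to 8.24). For Chil3 the intervals of the libraries do not overlap, and thinned to 2000 UMIs its shares were 8.79% in FLASH and 2.89% in standard. Retnla was found in 10 cells of each library, 2.63% of FLASH and 2.94% of standard cells. Mmp12 was found in 8 FLASH cells (2.10%) and 9 standard cells (2.65%).

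Of the surface receptors, Stab1 was detected in the most cells: 162 FLASH cells (42.5%, 37.5 to 47.7) and 169 standard cells (49.7%, 44.3 to 55.2). Mrc1 was found in 84 FLASH cells (22.05%, 18.0 to 26.6) and 92 standard cells (27.1%, 22.4 to 32.1). Folr2 was found in 91 FLASH cells (23.9%) and 83 standard cells (24.4%). For each of these 3 receptors the intervals of the libraries overlap. Cd163 was found in 4 FLASH cells with 17 UMIs, 13 of them in 1 cell, and in 0 of 340 standard cells, which allows a share of cells with a UMI of up to 0.882% by a floor of 3 counts (exact interval up to 1.08%). Lyve1 was found in 1 FLASH cell with 2 UMIs and in 0 standard cells. Both receptors are often used to define border macrophages, and at this depth neither was detectable in most of the myeloid cells of either library.

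**Figure D1:**
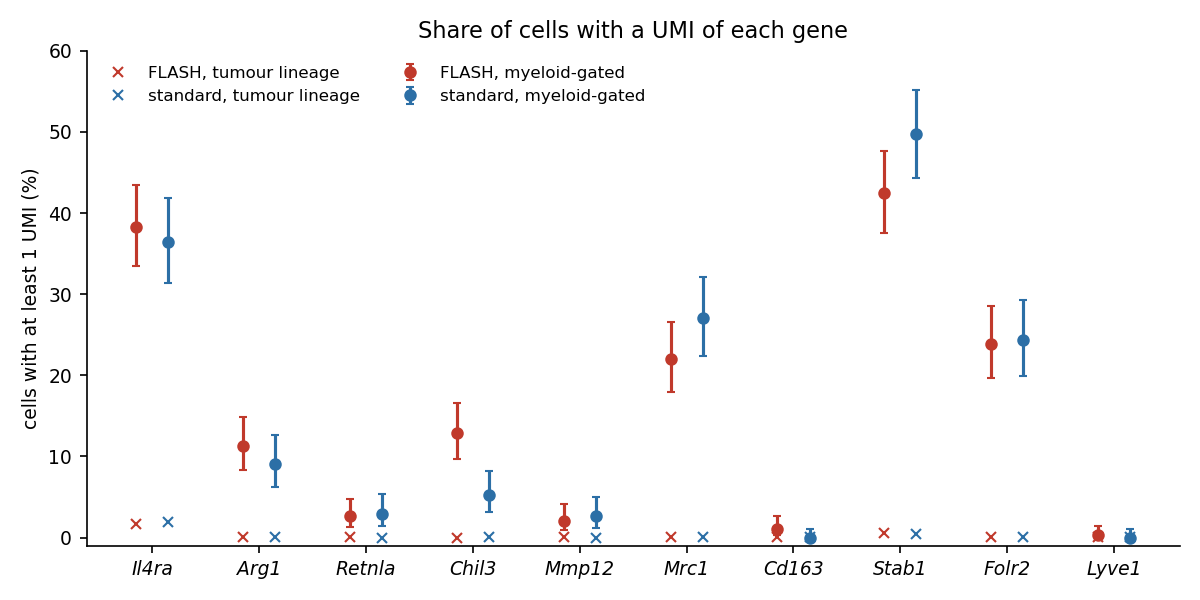
Share of cells with at least 1 UMI of each gene (y axis, percent) for the 10 members (x axis), FLASH left in red and standard right in blue. Dots with exact Clopper-Pearson intervals are the 381 FLASH and 340 standard myeloid-gated cells, and crosses are the tumour-lineage cells of the same libraries, where every member stayed at or under 1.93%.

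Tumour cells were taken as a comparison for the myeloid cells. Whether their UMIs of these genes came from free RNA or from the cells' own expression was not tested. Tumour-lineage cells had at least 2 lineage markers and fewer than 2 pan-myeloid genes, and their median depth was 5617 UMIs in FLASH (8630 cells) and 6086 in standard (7044 cells). Il4ra had a UMI in 1.63% of the FLASH and 1.93% of the standard tumour cells, and Stab1 in 0.533% and 0.440%. The shares of the other 8 members lay between 0% and 0.128%. In myeloid cells Cd163 (1.05% in FLASH) and Lyve1 (0.262% in FLASH) were the members nearest to these tumour-cell shares.

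Outside the myeloid gate, some members were also found in cells of other types, named by at least 3 of their markers. Stab1 was found in 16 of 49 endothelial-class cells of the FLASH library (32.7%, 19.9 to 47.5) and in 10 of 29 of the standard library (34.5%, 17.9 to 54.3). Folr2 was found in 9 of 149 oligodendrocyte-lineage cells in FLASH (6.04%, 2.80 to 11.2) and 8 of 102 in standard (7.84%, 3.45 to 14.9), each above the tumour cells' share of 0.0463% and 0.0284%. Il4ra was found in 3 of 7 fibroblast and mural cells in standard (42.9%, 9.90 to 81.6) and in none of those in FLASH. Endothelial cells of several organs are known to carry stabilin-1. Most Stab1 UMIs still lay in myeloid cells, with 608 FLASH and 521 standard UMIs inside the gate and 86 and 51 outside it.

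The members fell into different subsets of the myeloid cells, and this was described with 4 exclusive groups. P2ry12 cells (at least 1 P2ry12 UMI) numbered 127 in FLASH (33.3% of myeloid cells) and 151 in standard (44.4%). C1q cells (at least 3 C1q UMIs and neither other gene) numbered 169 (44.4%) and 138 (40.6%). Ly6c2 cells were 30 (7.87%, 5.38 to 11.1) in FLASH and 12 (3.53%, 1.84 to 6.08) in standard, and triple-negative cells, with none of these marks, were 55 (14.4%) and 37 (10.9%). A further 2 standard cells held both P2ry12 and Ly6c2. Marker classes are not independent of these groups, since P2ry12 is itself a microglia marker and Ly6c2 a monocyte marker. Of P2ry12 cells, 68 in FLASH and 97 in standard met the microglia class, and 11 and 7 the border-associated macrophage class. A further 47 in each library had no class. Of Ly6c2 cells, 19 and 5 met the monocyte class, and 10 and 7 had no class. Of C1q cells, 21 and 16 met the border-associated macrophage class and 9 and 6 the microglia class, while 129 and 115 had no class. The triple-negative cells included 19 and 7 monocyte-class, 6 and 3 neutrophil-class and 2 and 5 dendritic-class cells. Median depth was 8293 UMIs in FLASH and 8075 in standard for P2ry12 cells, 6598 and 6564 for C1q cells, 4941 and 5671 for Ly6c2 cells and 3821 and 4643 for triple-negative cells.

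Arg1 was lowest in the P2ry12 cells of FLASH and of standard, and highest in the triple-negative cells. Levels are given as UMIs per 1000000 UMIs of the summed cells (CPM). In FLASH, Arg1 stood at 442 CPM in Ly6c2 cells and 653 CPM in triple-negative cells, and at 58.8 CPM in C1q cells and 12.7 CPM in P2ry12 cells. In standard it stood at 93.2 CPM in Ly6c2 cells, 474 CPM in triple-negative cells, 126 CPM in C1q cells and 14.9 CPM in P2ry12 cells. With gates that may overlap, all Ly6c2-positive cells stood at 442 CPM in FLASH and 177 CPM in standard. All cells with at least 3 C1q UMIs then stood at 34.7 and 69.6 CPM. The order of Ly6c2 and C1q cells in standard therefore depends on the gates. C1q cells exceeded P2ry12 cells in both libraries, by 2.17 on the log2 scale in FLASH (exact conditional binomial interval 1.39 to 3.13) and 3.05 in standard (2.35 to 3.88). The monocyte class held 18 Arg1-positive cells of 43 in FLASH, at 1186 CPM, and 2 of 14 in standard, at 108 CPM. Neutrophil-class cells, 20 in FLASH and 14 in standard, of which 6 and 3 were inside the myeloid gate, held no Arg1 UMI. With the highest cell of each subset left out, Arg1 in C1q over P2ry12 cells was at 2.03 (1.10 to 3.18) in FLASH and 2.45 (1.63 to 3.45) in standard.

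Chil3 was likewise higher in Ly6c2 and triple-negative cells than in C1q cells in FLASH, and had no UMI in the standard Ly6c2 cells. It was found in 12 of 30 Ly6c2 cells in FLASH, with 55 UMIs and 312 CPM, and in 0 of 12 in standard, which allows a share of cells with a UMI of up to 25% by a floor of 3 counts (exact interval up to 26.5%). In triple-negative cells Chil3 stood at 264 CPM in FLASH and 137 CPM in standard. In C1q cells it stood at 40.1 and 47.2 CPM, and in P2ry12 cells at 15.2 and 8.28 CPM. The C1q cells were above the P2ry12 cells in both libraries, by 1.37 (0.58 to 2.27) in FLASH and 2.46 (1.49 to 3.67) in standard. In the standard C1q cells 29 of the 42 Chil3 UMIs came from 1 cell. Without the highest cell of each subset the ratio was 1.24 (0.32 to 2.29) in FLASH and 1.29 (−0.10 to 2.90) in standard, on 20 UMIs in standard, too few for a call.

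Stab1, Mrc1 and Folr2 were low in Ly6c2 and triple-negative cells of both libraries. Stab1 reached 336 CPM in FLASH and 265 CPM in standard P2ry12 cells, 179 and 217 CPM in C1q cells, 34.0 and 46.6 CPM in Ly6c2 cells and 17.3 and 15.8 CPM in triple-negative cells. Folr2 was lower in C1q cells, at 63.2 CPM in FLASH and 42.7 CPM in standard, than in P2ry12 cells, at 110 CPM in both. Its log2 ratio of C1q over P2ry12 cells was −0.79 (−1.24 to −0.37) in FLASH and −1.35 (−1.93 to −0.84) in standard. Mrc1 was similar in C1q and P2ry12 cells of the FLASH library (151 and 156 CPM) and higher in C1q cells of the standard library (278 and 166 CPM). In Ly6c2 and triple-negative cells Mrc1 had at most 52.7 CPM. Cells of the border-associated class, named by Pf4, Cbr2, Ms4a7 and F13a1, held Mrc1 in 14 of 32 FLASH cells (381 CPM) and in 15 of 23 standard cells (817 CPM).

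Il4ra was spread over all the subsets. It stood at 114 CPM in FLASH and 86.9 CPM in standard P2ry12 cells, 95.3 and 97.8 CPM in C1q cells, 113 and 69.9 CPM in Ly6c2 cells and 82.2 and 68.5 CPM in triple-negative cells. It was within 1.5-fold in both libraries between C1q and P2ry12 cells, Ly6c2 and C1q cells, Ly6c2 and P2ry12 cells, and triple-negative and C1q cells. Neutrophil-class cells inside and outside the gate also held it, 6 of 20 in FLASH and 3 of 14 in standard. The partner chains of the receptor rest on few UMIs in Ly6c2 cells. Il2rg, the common gamma chain, stood at 62.4 CPM in FLASH (11 UMIs) and 58.2 CPM in standard (5 UMIs) Ly6c2 cells. In P2ry12 cells it stood at 14.4 and 9.11 CPM. Il13ra1, the interleukin-13 receptor chain, stood at 90.7 CPM in FLASH (16 UMIs) and 23.3 CPM in standard (2 UMIs) Ly6c2 cells. In P2ry12 cells it stood at 26.2 and 36.4 CPM, so its direction differed between the libraries. The standard Ly6c2 value is under the floor of 3 counts, and neither difference was tested.

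Counted over the members, 3 (Arg1, Retnla and Chil3) were at least 1.5-fold higher in C1q than in P2ry12 cells in both libraries, and 1 (Folr2) was at least 1.5-fold lower in both. Of the 6606 genes with at least 30 UMIs in each library, 5.39% were higher and 3.95% lower in both by this fold. In single libraries 13.9% of genes in FLASH and 15.1% in standard were higher, and 9.13% and 11.0% were lower. When the highest cell of each subset was left out, 1 member (Arg1) was higher and 1 (Folr2) lower in both libraries, since Chil3 and Retnla then had fewer than 30 UMIs in standard. For Retnla only 2 UMIs in C1q and 3 in P2ry12 cells were left there, a log2 ratio of −0.04 (−3.7 to 3.0), while in FLASH it was 2.87. In standard, 1 cell had held 34 of the 36 Retnla UMIs of the C1q cells. In Ly6c2 against C1q cells of the FLASH library, 2 members (Arg1 and Chil3) were higher and 4 (Mrc1, Retnla, Folr2 and Stab1) were lower, where 21.4% and 17.5% of all genes were. In the standard library, with 12 Ly6c2 cells, 0 were higher and 6 were lower, where 22.9% and 22.2% of all genes were. Of these 6, Retnla, Chil3 and Folr2 had no UMI in the Ly6c2 cells and did not reach 1.5-fold against a floor of 3 counts, which left 3 (Mrc1, Mmp12 and Stab1), where 19.7% of all genes were lower in that way. In triple-negative against C1q cells, Arg1 and Chil3 were higher and 4 members lower in each library, with 21.3% of genes higher and 19.7% lower in FLASH and 21.0% and 17.8% in standard. In Ly6c2 against P2ry12 cells, 2 members were higher and 5 lower in FLASH (24.8% and 20.5% of genes), and 0 were higher and 3 lower in standard (28.0% and 26.3%). Mmp12 depends on few cells in these sums too, as described below.

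**Figure D2:**
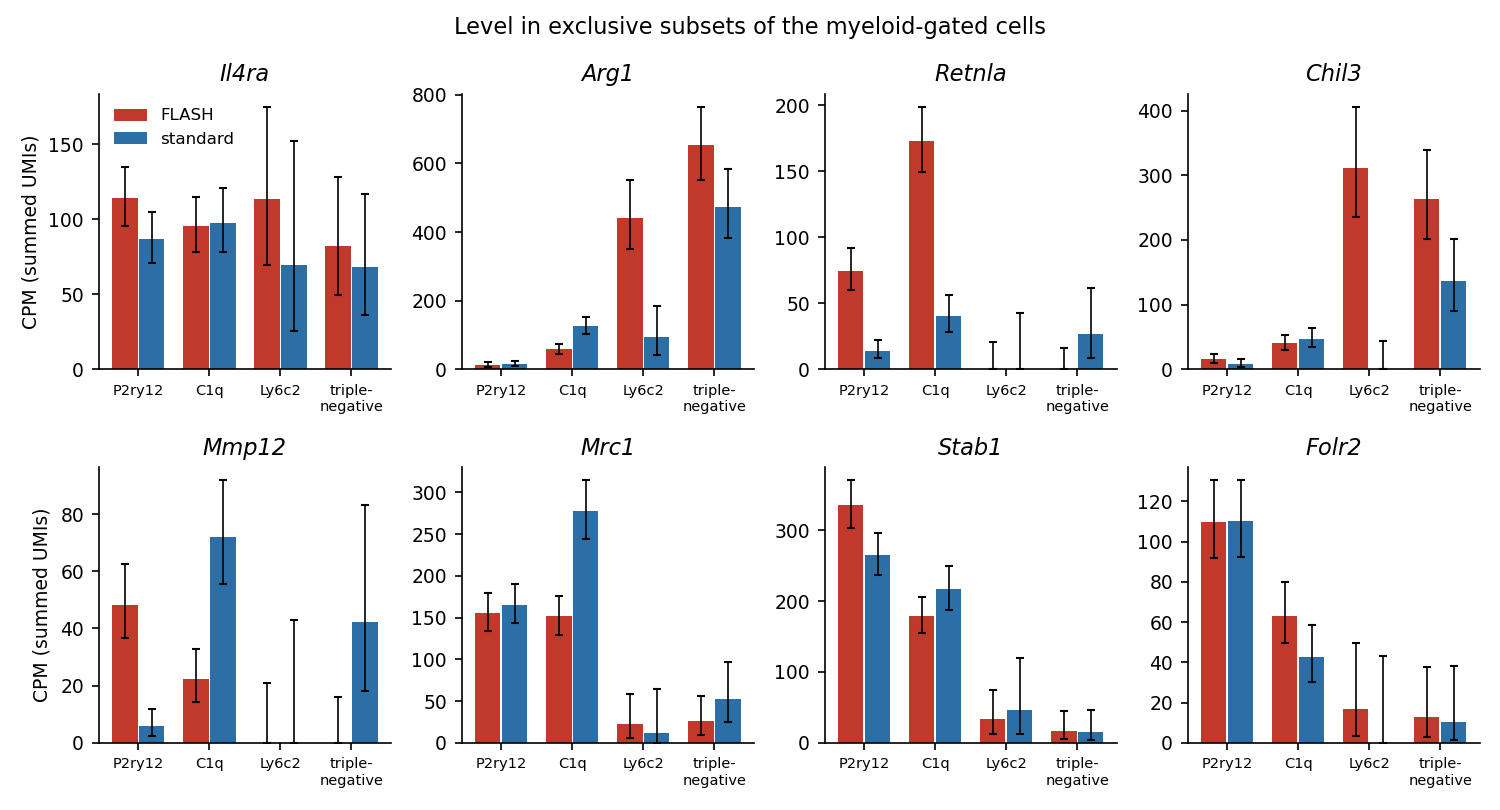
Level in CPM (y axis, from 0, each panel with its own scale) of 8 members in P2ry12, C1q, Ly6c2 and triple-negative cells (x axis), FLASH left in red and standard right in blue, with exact Poisson intervals. Arg1 and Chil3 are highest in the triple-negative or Ly6c2 cells, while Stab1, Folr2 and Mrc1 are low in both of those groups. Il4ra is spread over all 4 groups. In the standard Ly6c2 cells Chil3 is at 0. Arg1 there rests on 8 UMIs from 1 cell and is within 1.5-fold of the C1q cells.

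Much of the signal of Retnla, Mmp12 and Arg1 came from few cells. For Retnla, the 10 positive FLASH cells held 282 UMIs, with 87 in the highest cell, and the 10 positive standard cells held 68 UMIs, with 34 in the highest. Their median was 20.5 UMIs in FLASH and 2 in standard, and 7 FLASH and 3 standard cells had at least 10. For Mmp12, 1 cell held 53 of 82 UMIs in FLASH and 1 cell held 47 of 79 in standard. That FLASH cell, a P2ry12 cell with 16893 UMIs, also held 73 Retnla UMIs and no Arg1 or Mrc1 UMI.

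Arg1 was less extreme. Cells with at least 10 Arg1 UMIs numbered 9 in FLASH and 6 in standard, and they held 70.0% and 74.5% of its UMIs. Mrc1 was spread further: 8 FLASH and 13 standard cells had at least 10 UMIs and held 35.7% and 52.0% of the total. For Il4ra, 1 FLASH cell and no standard cell had 10 UMIs. The Cd163 and Lyve1 signal of the FLASH library included a border-class cell with 28 Mrc1, 34 Retnla, 2 Cd163 and 2 Lyve1 UMIs.

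**Figure D3:**
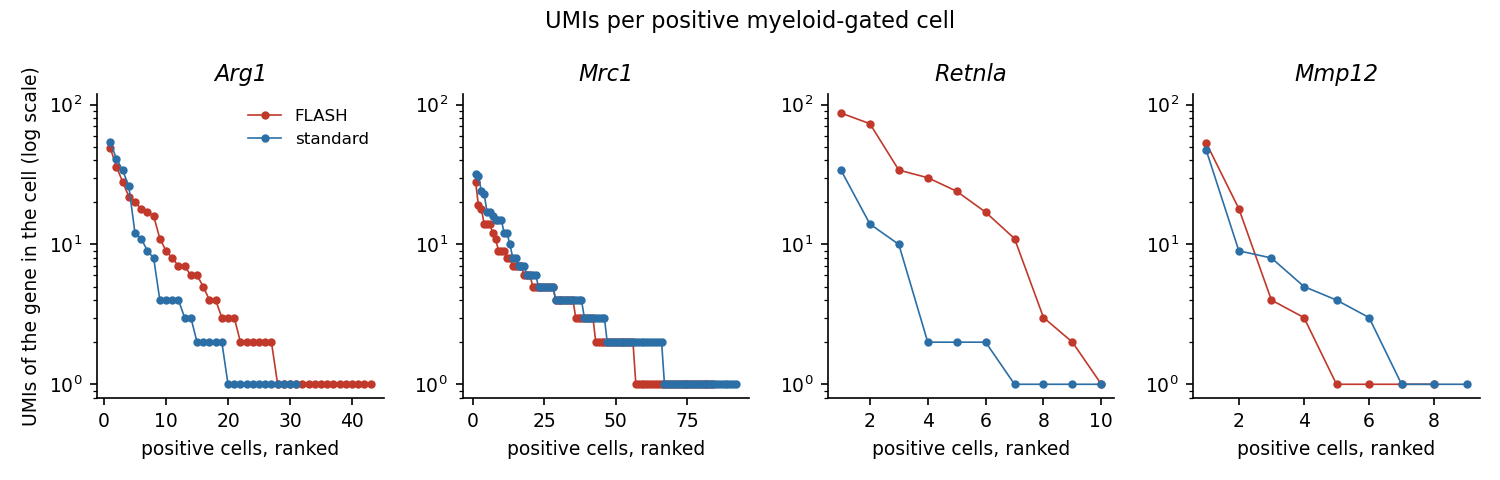
UMIs of Arg1, Mrc1, Retnla and Mmp12 per positive myeloid-gated cell (y axis, log scale) with cells ranked from the highest down (x axis), FLASH in red and standard in blue. Retnla has 10 positive cells in each library and lies higher in FLASH, while 1 cell stands far above the rest for Mmp12 in both.

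Mrc1 and Stab1 were detected together in both libraries. Of the Mrc1-positive cells, Stab1 was found in 61 of 84 in FLASH (72.6%, 61.8 to 81.8) and 70 of 92 in standard (76.1%, 66.1 to 84.4). Of the Mrc1-negative cells, Stab1 was found in 34.0% in FLASH and 39.9% in standard. Deeper cells show more of every gene, so the same shares were taken at 2000 UMIs per cell, where they were 52.6% with and 20.6% without Mrc1 in FLASH, and 52.5% and 24.1% in standard. Inside single subsets Stab1 was also found more often with Mrc1 than without it. Among P2ry12 cells, unthinned, the shares with and without Mrc1 were 92.3% and 59.1% in FLASH, and 90% and 48.6% in standard. At 2000 UMIs they were 66.25% and 34.4% in FLASH, and 63.1% and 29.6% in standard. Among C1q cells the unthinned shares were 61.5% and 32.3% in FLASH, and 73.3% and 43.0% in standard. At 2000 UMIs the C1q shares were 45.8% and 18.8% in FLASH, and 48.8% and 26.2% in standard.

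Il4ra was found more often with Mrc1 as well, in 64.3% of Mrc1-positive and 31.0% of Mrc1-negative cells in FLASH and in 56.5% and 29.0% in standard. At 2000 UMIs these shares were 29.1% and 15.1% in FLASH, and 22.6% and 14.3% in standard. Folr2 gave a different picture in each library, with no test of that difference. It was found in 41.7% (31.0 to 52.9) of Mrc1-positive and 18.9% of Mrc1-negative cells in FLASH, and in 23.9% (15.6 to 33.9) and 24.6% in standard. Inside the P2ry12 cells Folr2 was found with and without Mrc1 in 56.4% and 31.8% in FLASH and 30% and 40.5% in standard.

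Mrc1 was found in a part of the Arg1-positive cells of each library. Of the Arg1-positive cells, 11 of 43 in FLASH (25.6%, 13.5 to 41.2) and 15 of 31 in standard (48.4%, 30.1 to 66.9) held Mrc1, and of the Arg1-negative cells 21.6% and 24.9% did. The intervals of the libraries overlap, and at 2000 UMIs the shares with and without Arg1 were 14.4% and 13.2% in FLASH and 38.3% and 15.8% in standard. Inside the P2ry12 cells Mrc1 was found in 3 of 8 Arg1-positive cells in FLASH and 6 of 9 in standard. Among the Arg1-negative P2ry12 cells the shares were 30.25% and 23.94%. Inside the C1q cells Mrc1 was found in 5 of 17 and 8 of 13 Arg1-positive cells, and in 22.37% and 29.6% of Arg1-negative cells. At 2000 UMIs the C1q shares with and without Arg1 were 12.2% and 14.5% in FLASH, and 64.3% and 21.7% in standard. In P2ry12 cells they were then 22.2% and 17.8% in FLASH, and 48.6% and 14.5% in standard. Of the 10 Retnla-positive cells of each library 8 held Mrc1, and of the Retnla-negative cells 20.5% in FLASH and 25.5% in standard did. At 2000 UMIs these shares were 43.3% with and 12.6% without Retnla in FLASH, and 50.7% and 16.6% in standard. The FLASH cells with 73 and 11 Retnla UMIs held no Mrc1 UMI. Of the Retnla-positive cells 4 in FLASH and 6 in standard held Arg1, and none of the 10 in either library held Chil3. Chil3 was found in 10 of the 43 Arg1-positive cells in FLASH (23.3%, 11.8 to 38.6) and in 1 of 31 in standard (3.23%, 0.0816 to 16.7). Of the Arg1-negative cells, 11.5% in FLASH and 5.50% in standard held it. At 2000 UMIs the Chil3 shares with and without Arg1 were 35.3% and 6.70% in FLASH, and 6.19% and 2.69% in standard. The standard direction thus depends on depth and rests on 1 cell with both.

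**Figure D4:**
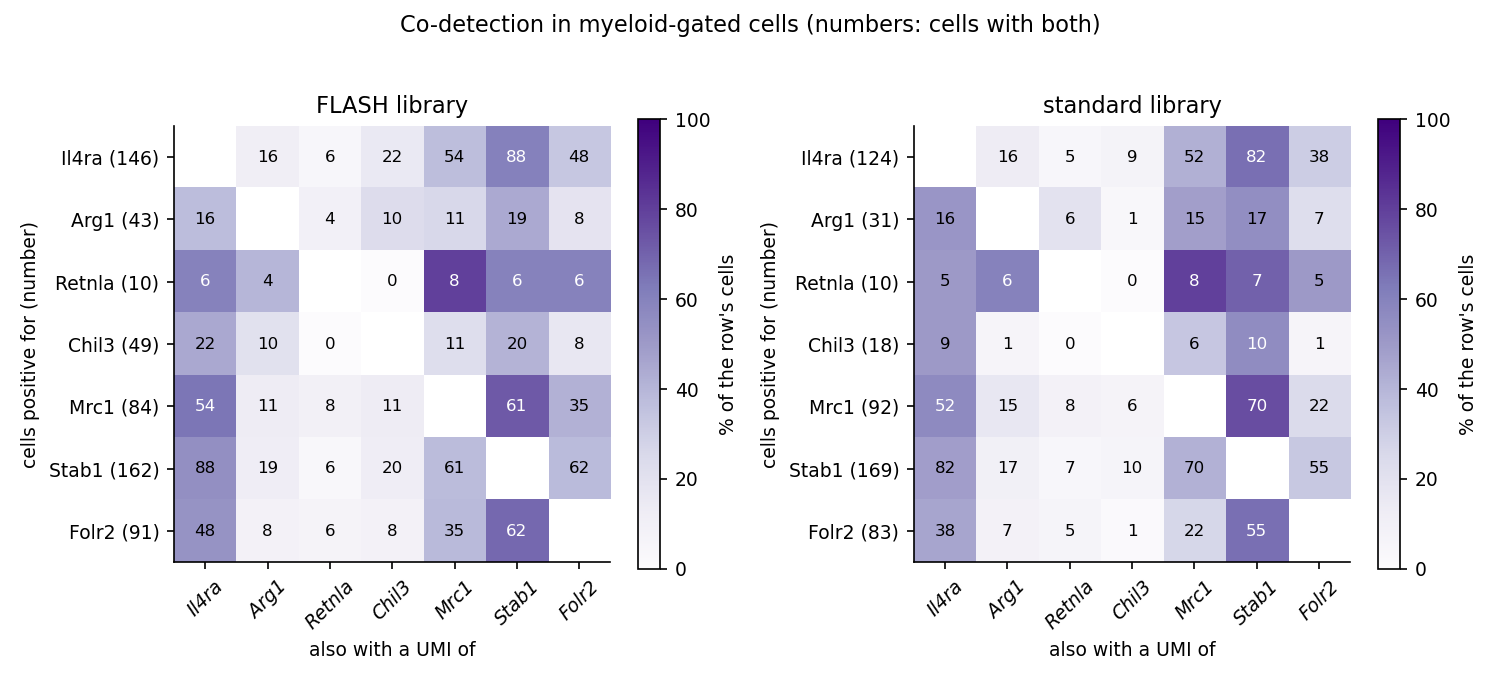
Co-detection of 7 members in myeloid-gated cells, FLASH left and standard right. Each row takes the cells positive for 1 gene (number in brackets), the colour gives the percent of them that also hold a UMI of the column's gene, and the printed number counts those cells. The darkest fields in both libraries are Stab1 among Mrc1-positive cells and Mrc1 among the 10 Retnla-positive cells.

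The genes most like Mrc1 and Arg1 across single cells were different sets. Likeness was the Pearson correlation of log-scaled counts per 10000 over the 381 FLASH and 340 standard cells, ranked by the lower value of the 2 libraries among 8147 genes with at least 50 UMIs. It is a description, since all genes of a cell share its depth. Nearest to Mrc1 were Pf4, a chemokine of platelets and border macrophages, with r of 0.61 in FLASH and 0.62 in standard, and Dab2, an endocytic adaptor, with 0.53 and 0.58. Stab1 followed with 0.44 and 0.47, then the transcription factor Maf with 0.42 and 0.41 and Ms4a7, a membrane protein of macrophages, with 0.41 and 0.33. Nearest to Arg1 were Tgm2, a transglutaminase, with 0.61 and 0.50, and the chemokine Ccl24 with 0.61 and 0.45. Fn1, which encodes fibronectin, had 0.47 and 0.41, Tgfbi, a secreted matrix protein, 0.47 and 0.34, and Emp1, a membrane protein, 0.36 and 0.33. Pf4 and Ms4a7 are also among the markers that named the border-associated class. Mrc1 and Arg1 themselves had r of 0.005 in FLASH and 0.19 in standard.

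Between the libraries, Retnla and Chil3 were higher in FLASH and the other members with enough UMIs were within 1.5-fold. Retnla stood at 104 CPM in FLASH and 28.4 CPM in standard, a log2 ratio of 1.86 (1.49 to 2.28). Chil3 stood at 66.0 CPM in FLASH and 32.6 CPM in standard, a log2 ratio of 1.01 (0.63 to 1.42). Mrc1 was lower in FLASH, at 134 CPM against 192 CPM in standard, with a log2 ratio of −0.52 (−0.72 to −0.32) that did not reach 1.5-fold. Its interval leaves out 0 for counting error alone.

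The remaining ratios were smaller. Arg1 stood at 114 CPM in FLASH and 99.8 CPM in standard (0.19, −0.05 to 0.44), and Il4ra at 104 and 88.5 CPM (0.23, −0.04 to 0.49). Stab1 stood at 224 and 218 CPM (0.04, −0.13 to 0.21), Folr2 at 76.3 and 72.3 CPM (0.08, −0.22 to 0.38) and Mmp12 at 30.2 and 33.0 CPM (−0.13, −0.59 to 0.34). For these 5 genes the intervals include 0. Cd163, with 17 UMIs in FLASH and 0 in standard, was 5.00-fold higher against a floor of 3 counts in the standard library. The exact interval of its log2 ratio began at 1.865, and it had too few UMIs to be called. Lyve1 was at or under the floor in both.

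Of the 8 members with at least 30 UMIs over both libraries, 2 were at least 1.5-fold higher in FLASH, 0 were lower and 6 were within. Of the 9556 genes with as many UMIs, 4.58% were higher and 3.99% lower by this fold. The median log2 ratio was 0.14 over the 8 members and 0.01 over all of these genes. Retnla's ratio rests on 10 cells in each library. It was 2.32 without the highest cell of each library and 2.92 without the cells that hold at least 2 lineage markers, since the highest standard cell has 6 of them. Mmp12, within 1.5-fold in all myeloid cells, had a log2 ratio of 1.12 without the lineage-marker cells, which takes out the standard cell with 47 UMIs. The monocyte class held 43 FLASH and 14 standard cells and Ly6c2 cells were 7.87% and 3.53% of the myeloid cells. With the 4 groups held to the same mix in both libraries the log2 ratio of Chil3 was 0.84 and that of Arg1 was 0.07.

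**Figure D5:**
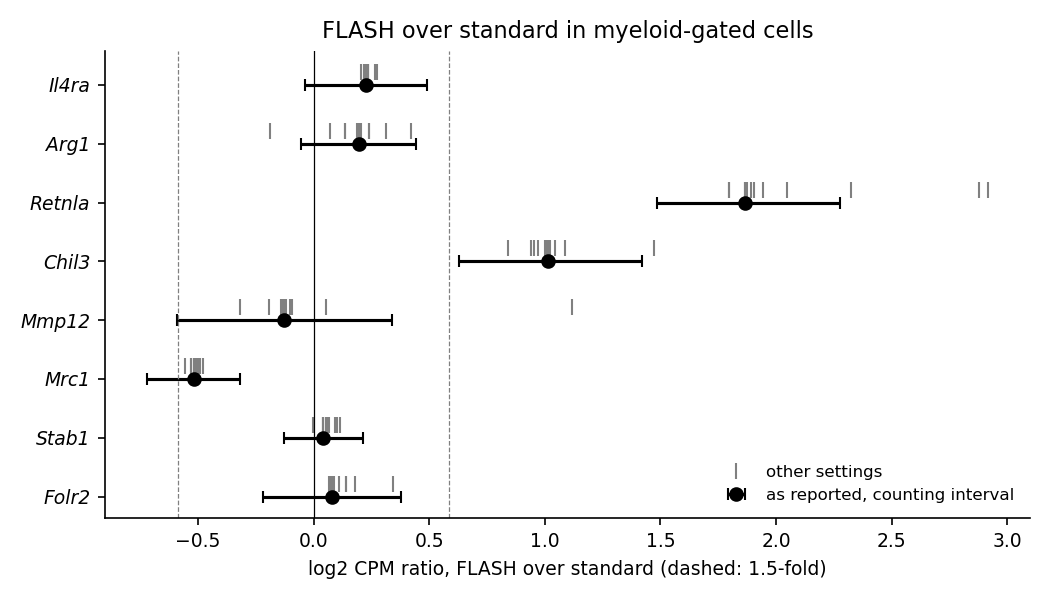
Log2 ratio of CPM, FLASH over standard, in myeloid-gated cells (x axis) for the 8 members with at least 30 UMIs (rows), with exact conditional binomial intervals. Grey ticks above each dot are the same ratio under the other settings, and dashed lines mark 1.5-fold: Retnla and Chil3 lie to the right of the upper line at every setting, and the other 6 dots lie between the lines.

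Inside the subsets the ratios of single members went in different directions. In C1q cells Retnla was higher, at 173 CPM in FLASH and 40.5 CPM in standard (2.08, 1.57 to 2.65), while Mrc1 (151 and 278 CPM, −0.87, −1.17 to −0.59), Arg1 (58.8 and 126 CPM, −1.10, −1.56 to −0.65) and Mmp12 (22.3 and 72.0 CPM, −1.68, −2.42 to −1.01) were lower. Of all genes tested there, 6.86% were higher and 6.48% lower by 1.5-fold. Without the highest cell of each library Arg1 in C1q cells was at −0.73 (−1.33 to −0.15) and Mrc1 at −0.94 (−1.26 to −0.63).

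In P2ry12 cells, where 6.41% of genes were higher and 6.38% lower, Retnla (74.5 and 14.1 CPM, 2.37) and Mmp12 (48.2 and 5.80 CPM, 2.97) were higher in FLASH. Both rest on the same FLASH cell, and without the highest cells only 15 FLASH and 3 standard Retnla UMIs and 4 and 2 Mmp12 UMIs were left, too few for a call. Mrc1 in these cells was at −0.09 (−0.39 to 0.21). Stab1 stood at 336 CPM in FLASH and 265 CPM in standard (0.34, 0.13 to 0.56), within 1.5-fold.

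In Ly6c2 cells, 30 in FLASH and 12 in standard, Arg1 was higher at 442 CPM in FLASH and 93.2 CPM in standard (2.17, 1.20 to 3.51), with 8 of 30 and 1 of 12 cells positive. The size of this ratio depends on the gate. With the 2 standard cells that also held P2ry12 counted in, standard Arg1 stood at 177 CPM, with 19 UMIs in 2 of 14 cells. Chil3 was 8.93-fold higher in FLASH against a floor of 3 counts in these standard cells, and the exact interval of its log2 ratio began at 2.81. Of all genes tested there, 13.7% were higher and 11.4% lower. The 6 neutrophil markers summed to 686 CPM in the FLASH Ly6c2 cells, with Retnlg at 0, and to 58.2 CPM in the standard ones, with 3 of 6 at 0 (S100a9, Cxcr2 and Retnlg), and their part in these ratios was not tested. In triple-negative cells Chil3 was higher (0.93, 0.26 to 1.67) and Arg1 was at 0.46 (0.08 to 0.85), where 10.5% of genes were higher and 11.4% lower. There all 6 neutrophil markers had UMIs in each library, with a summed level of 3741 CPM in FLASH and 1971 CPM in standard, and their part was not tested either. Without the highest cell of each library Arg1 was at 0.76 (0.27 to 1.29) and Chil3 at 1.30 (0.37 to 2.41) in triple-negative cells.

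The genes around the members were described with 7 lists, which hold none of the members. The lists hold 98 genes found in the files, of which 71 had at least 30 UMIs in the myeloid cells, and 9 of these (12.7%) were at least 1.5-fold higher and 5 (7.04%) lower in FLASH, beside 4.58% and 3.99% of all genes. The lists were chosen with earlier results of these data known, and the all-gene shares were not matched for UMI count. The shares are therefore a description only. In interleukin-4 and interleukin-13 signalling, 12 of 14 genes had enough UMIs, 1 was higher and 0 were lower, with a median of 0.06. The gene that was higher was Cish, a STAT-induced inhibitor of cytokine signalling, at 12.9 CPM in FLASH and 4.59 CPM in standard (1.45, 0.48 to 2.62). Stat6 stood at 42.0 and 32.6 CPM (0.36, −0.06 to 0.80), the kinase Jak2 at 48.3 and 37.2 CPM (0.38, −0.02 to 0.78) and Il2rg at 14.8 and 11.3 CPM (0.38, −0.35 to 1.15). The ligands Il4 and Il13 had no UMI in the myeloid cells of either library.

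Of 17 further targets of interleukin-4 or STAT6 in the files, 12 had enough UMIs, 0 were higher and 1 was lower, with a median of 0.02. The chemokine Ccl17 stood at 4.79 CPM in FLASH and 8.77 CPM in standard (−0.85, −1.99 to 0.19), with 61.5% of its FLASH and 71.4% of its standard UMIs in 1 cell. Tgm2 stood at 102 and 78.1 CPM (0.38, 0.11 to 0.66) and Ccl24 at 81.1 and 101 CPM (−0.31, −0.58 to −0.04). Ear2, a ribonuclease of eosinophils and macrophages, stood at 24.7 and 16.7 CPM (0.56, −0.02 to 1.17). Of these targets none was higher at the fold that Retnla and Chil3 passed.

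In arginine and polyamine metabolism 1 of 12 genes was higher and 0 were lower, with a median of 0.03. It was Slc7a1, the arginine transporter, at 27.3 CPM in FLASH and 17.1 CPM in standard (0.66, 0.10 to 1.26). Ass1 and Asl, which rebuild arginine from citrulline, stood at 9.22 and 7.52 CPM (0.28) and at 25.4 and 21.3 CPM (0.25), and Srm, the spermidine synthase, at 40.9 and 49.7 CPM (−0.28). Nos2, which competes with arginase for arginine, had no UMI in the myeloid cells of either library.

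Of 15 border macrophage genes with enough UMIs, 2 were higher and 1 was lower in FLASH, with a median of 0.12. Siglec1, a sialic acid receptor, stood at 18.4 CPM in FLASH and 7.10 CPM in standard (1.35, 0.56 to 2.26), and the chemokine Ccl8 at 30.6 and 18.8 CPM (0.70, 0.16 to 1.26). The chemokine Ccl7 stood at 55.7 CPM in FLASH and 109 CPM in standard (−0.96, −1.26 to −0.67). Maf stood at 279 and 362 CPM (−0.37, −0.52 to −0.23).

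Of 9 pro-inflammatory genes, 3 were higher and 2 lower, with a median of 0.28. The interferon-induced chemokines Cxcl9 (18.1 CPM in FLASH and 2.09 CPM in standard, 2.99) and Cxcl10 (53.8 and 24.2 CPM, 1.14) were higher, as was Ccl5. For Cxcl9, 83.7% of the FLASH UMIs came from 1 cell, and all of the standard UMIs were in 1 cell. Il1a, which encodes interleukin-1 alpha (29.5 and 51.8 CPM, −0.81), and Ptgs2, the inducible cyclooxygenase (7.37 and 17.5 CPM, −1.23), were lower. Of 4 matrix metalloproteinases and inhibitors, 1 was higher and 0 were lower: Timp1, a metalloproteinase inhibitor, at 12.9 and 7.52 CPM (0.76, −0.08 to 1.69). Mmp14, the membrane-bound metalloproteinase, stood at 67.1 and 75.2 CPM (−0.16), Mmp2, the gelatinase, at 13.3 and 16.3 CPM (−0.29) and Timp2 at 1052 and 1096 CPM (−0.06). Of 8 scavenger receptors, 1 was higher and 1 lower, with a median of −0.02. Olr1, a receptor for oxidised lipoprotein, stood at 15.9 and 7.94 CPM (0.98) and Cd5l, a soluble macrophage protein, at 32.8 and 58.5 CPM (−0.83), while Msr1 stood at 85.9 and 68.1 CPM (0.33) and Colec12 at 85.5 and 109 CPM (−0.36).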

How the data were processed

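Single-cell RNA was measured with 10x Genomics V3 chemistry in 1 library after FLASH and 1 after standard proton irradiation, from tissue digested with collagenase-II and DNase and passed through a mesh of 100 μm, per the labels' protocols. The deposited matrices hold UMI counts with no normalization. Cell Ranger 6.1.2 wrote them, per the file headers, and mm10 was the genome, per the submitters' processing notes. No annotation release is named in those sources.

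Cells with at least 500 genes and at most 10% mitochondrial UMIs were kept, which left out 2352 FLASH and 2819 standard barcodes with fewer genes and 1551 and 1587 with more mitochondrial UMIs. Scrublet (scanpy 1.11.5) marked 0 cells in both libraries by its automatic cutoff and so did not work. Doublets were therefore left in, and removal of the 860 FLASH and 573 standard cells with the highest scores (0.8% per 1000 cells) was an alternative. Counts were summed over cells per library and given as CPM, with no count model. Log2 ratios had 0.5 count added to each sum, and a call needed 1.5-fold and 30 UMIs. Intervals (95%, scipy 1.17.1) are exact: Clopper-Pearson for a share, Poisson for a CPM, and for a ratio the conditional binomial. They cover counting error only, not the spread between animals, preparations or cells. A count of 0 was given a floor of 3 counts. Shares at 2000 or 1000 UMIs are expected values of drawing that many UMIs per cell without replacement, leaving out shallower cells (58 FLASH and 53 standard myeloid cells at 2000). Ratio, interval and thinning functions were tested on simulated data. The members, gene lists and alternatives were chosen with earlier results of these data known. All 10 members are named, with the 4 genes of largest absolute ratio from each list and the 5 genes most like Mrc1 and Arg1. Names outside this rule (Ccl5, Il13ra1, Nos2, Il4 and Il13) were chosen after their values were seen. Clec7a of the target list was not analysed here.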

Additional observations from a re-analysis of the deposited data

Results flagged for a closer look

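The barcodes that the cell filter left out, which no comparison above uses, still held UMIs of the 10 members: 105 UMIs in the 3903 FLASH barcodes and 86 UMIs in the 4406 standard barcodes, above a floor of 3 counts. Stab1 gave 45 of these in FLASH and 27 in standard, and Il4ra 29 and 28. Summed, the members stood at 21.8 CPM in the left-out FLASH barcodes and 16.2 in the left-out standard barcodes, against 45.1 and 41.4 CPM in the kept cells.

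Mmp12 went in opposite directions in neighbouring subsets, with a log2 ratio of FLASH over standard of 2.97 in P2ry12 cells and −1.68 in C1q cells. The difference between the subsets was not tested. In P2ry12 cells 53 of the 57 FLASH UMIs came from 1 cell, and in C1q cells 47 of the 64 standard UMIs came from 1 cell.

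Arg1 likewise had a log2 ratio of −1.10 in C1q cells and 2.17 in Ly6c2 cells, and this difference was not tested. Without the highest cell of each library it was at −0.73 in C1q cells, and in Ly6c2 cells 58 FLASH and 0 standard UMIs were left. The Ly6c2 value sets 30 FLASH cells beside 12 standard cells, of which 1 held all 8 Arg1 UMIs. A further standard cell with both Ly6c2 and P2ry12, which is outside this group, held 11 Arg1 UMIs.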

How the results depend on the processing

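No paired analysis was possible because each group has 1 library. The counts of members called (2 higher, 0 lower in FLASH) stayed within 1.5 times under all alternatives, although 3 were higher without the cells that hold at least 2 lineage markers, a setting chosen after seeing the data. Leaving out the highest cell of each subset was also chosen after seeing the data. Then 1 member in place of 3 was higher in C1q than in P2ry12 cells in both libraries. Chil3 and Retnla had fewer than 30 UMIs left in standard, and the Retnla ratio there was also under 1.5-fold (log2 −0.04). The share of myeloid cells with any member was 78.6% in FLASH and 82.1% in standard with at least 1000 genes, 67.1% and 68.1% with a gate of 3 of 8 genes, 81.7% in FLASH with 6 of 8, and 37.2% and 37.0% at 1000 UMIs, beside 53.6% and 55.6% at 2000. Stab1 among Mrc1-positive cells was found in 52.6% and 52.5% at 2000 UMIs and 35.9% and 37.3% at 1000. Mrc1 among Arg1-positive cells was found in 6.90% in FLASH and 26.2% in standard at 1000 UMIs. Among ratios within 1.5-fold, Arg1 ranged from −0.19 (at least 1000 genes) to 0.42 (6 of 8 genes), Mmp12 from −0.32 to 1.12 and Stab1 from −0.00 to 0.11, so their signs depend on the setting. Over all alternatives Retnla ranged from 1.80 to 2.92, Chil3 from 0.84 to 1.47 and Mrc1 from −0.56 to −0.48. The cause of these shifts was not tested. Of 256 repeats for single genes, 218 stayed within the counting interval. These include repeats that changed only the minimum UMI count, which leaves each ratio as it was. A change of sign was scored only for the 2 called ratios, Retnla and Chil3, and neither changed sign. Cd163 and Lyve1 had too few UMIs for a call, and the part of depth in this was not tested. Having 1 library per group limits every difference.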
